A study of Mus musculus with 9 samples.

Results

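The comparison set 6 libraries from the hippocampus of mice with a tied spinal nerve against 3 libraries from sham-operated mice, 9 of 9 libraries in all. The 6 were pooled by surgery alone, whatever was injected afterwards: 3 came from the group called SNL and 3 from the group called CBD. All mice were C57BL/6J. Sham mice had the L5 spinal nerve exposed and left untied, and were given solvent. SNL mice had the nerve ligated, a model of neuropathic pain, and were given solvent. CBD mice had the same ligation and then cannabidiol, a cannabinoid that does not intoxicate, at 5 mg/kg into the peritoneum for 15 days. The series set out to study how cannabidiol acts on pain with depression in this model, and pooling both ligated groups asks what ligated hippocampus has in common with and without the drug. No sham mice with cannabidiol were among the samples, and age and sex were not given. Whether each library stands for its own animal is not stated in the labels, and the p-values therefore reflect the spread among these libraries alone, part of which may be technical.

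The hippocampus carries dense receptors for adrenal glucocorticoids, which enter the nucleus on binding hormone and switch on target genes such as Fkbp5 and Sgk1, and it is a part of the brain in which chronic pain and stress are often studied. Its excitatory neurons, the granule cells of the dentate gyrus and the pyramidal cells of CA1 and CA3, express immediate early genes after activity. Cells that make much secreted or membrane protein hold chaperones in the endoplasmic reticulum (ER), and the unfolded protein response raises those chaperones when folding demand goes up.

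Libraries held between 16972620 and 20470546 estimated counts. Levels below are CPM, counts scaled to a common library size, after scaling by trimmed mean of M-values (TMM), and changes are log2 fold changes with their standard error (SE). A value followed by its SE is the log2 fold change of ligated against sham libraries. Hippocampal markers were present in every library, for example C1ql2, a dentate granule cell gene, at 58.7 to 109 CPM in sham and 23.9 to 52.2 CPM in the ligated libraries. Libraries also held transcripts of neighbouring tissue. For thalamus and habenula markers every ligated library lay above every sham library. Their median log2 difference from the sham mean was 0.25 to 1.88 in the ligated and -0.39 to 0.17 in the sham libraries. Pmch, the hypothalamic melanin-concentrating hormone precursor, stood at 200.4, 43.9 and 146 CPM in SNL 1, SNL 2 and CBD 1 while no other library passed 0.797 CPM. Among sham libraries, Sham 3 lay nearest to the ligated libraries for many neuronal genes: without it, 68 genes were called higher and 168 lower, against 0 and 1 with all 9 libraries, and without Sham 1 none was called. CBD 2 and CBD 3 differed least of any pair, though by more than counting noise, and without either 1 gene, Arl4d, was called (edgeR adjusted p = 0.0258 without CBD 2 and 0.0236 without CBD 3).

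Across 17967 tested genes, 1 differed between the 6 ligated and the 3 sham libraries at an adjusted p under 0.05 in edgeR's quasi-likelihood test, which is 0.00557% of the genes. That gene, Arl4d, fell. No gene was called higher (0%); the smallest adjusted p among genes with higher levels was 0.134. At an unadjusted p under 0.05 the same test held 1031 higher genes (5.74%) and 1373 lower genes (7.64%). DESeq2's Wald test called 120 higher and 259 lower, and limma with sample weights called 0 and 2. As a description with no test, all 6 ligated libraries lay above all 3 sham libraries for 467 genes (2.6%) and below them for 581 (3.23%). Both ligated groups also differed from sham by at least 1.5-fold for 101 of the higher (0.562%) and 138 of the lower genes (0.768%), and by at least 2-fold for 31 (0.173%) and 37 (0.206%).

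**Figure D1:**
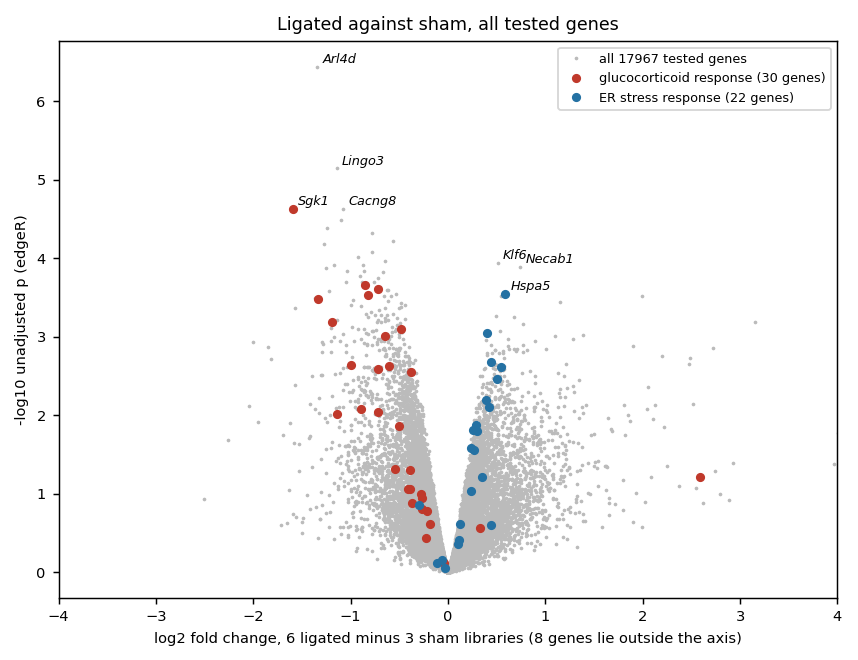
Each grey point is 1 of 17967 tested genes, with the log2 fold change of the 6 ligated against the 3 sham libraries on the x axis and −log10 of the unadjusted edgeR p on the y axis; 8 genes lie outside the x axis. Red points are 30 glucocorticoid response genes, of which 28 lie left of 0, and blue points are 22 ER stress response genes, of which 18 lie right of 0; Arl4d is the gene with the smallest p.

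Arl4d (ENSMUSG00000034936) encodes a small GTPase of the Arf-like family that sits at the plasma membrane and recruits cytohesins, the exchange factors that load Arf proteins with GTP. It stood at 20.9, 16.0 and 19.3 CPM in Sham 1, 2 and 3, at 6.30, 8.41 and 7.49 CPM in SNL 1, 2 and 3, and at 8.01, 6.61 and 7.41 CPM in CBD 1, 2 and 3. Every ligated library was below every sham library, and the solvent and cannabidiol libraries were interleaved. Mean levels were 18.7 ± 2.51 CPM in sham (SD, n = 3) and 7.37 ± 0.805 CPM in ligated hippocampus (SD, n = 6), a 2.54-fold lower level. The log2 fold change was -1.34 (SE 0.14, adjusted p = 0.00647, edgeR). It was -1.34 in SNL (edgeR adjusted p = 0.0806) and -1.35 in CBD (edgeR adjusted p = 0.110), neither past the threshold alone. The difference between the ligated groups was -0.01 (SE 0.17), with an interval of 2 SE on either side from -0.35 to 0.32. Those comparisons with sham share the same 3 control libraries and are not independent. Without Sham 1 the call was lost, at a log2 fold change of -1.26 and an adjusted p of 0.127 in edgeR. With the replicate number as a block it was lost too, at -1.34 and an edgeR adjusted p of 0.0667. Whether equal numbers pair the samples could not be settled.

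The other genes of the Arl4 and cytohesin group did not share that size of difference. Of 13 tested members of the Arf-like list, 7 had higher and 6 lower levels, with a median log2 fold change of 0.09 beside 0.01 over all tested genes. Arl4a, a close relative, ranged over 22 to 24.7 CPM in sham and 20.9 to 31.6 CPM in the ligated libraries, and Arl4c over 39.7 to 67.5 CPM in sham and 52.0 to 83.3 CPM in the ligated libraries; both ranges overlapped. Cyth1, a cytohesin, lay below sham in all 6 ligated libraries at 117 to 129 CPM in sham and 90.8 to 109.9 CPM in the ligated libraries, with a log2 fold change of -0.36 (SE 0.09). Cyth3, another cytohesin, also lay below sham in all 6, with a log2 fold change of -0.27 (SE 0.10). Over all tested genes 3.23% lay below sham in this way, and neither cytohesin passed the adjusted threshold.

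The Arl4d promoter is shown because this was the only gene called. Its 300 bases run from 250 before to 50 after the annotated start (chr11:101665291-101665590, plus strand, GRCm38.p6, RefSeq). Capitals mark the cyclic AMP response element TGACGTCA, the letters bound by CREB-family factors, searched on both strands.
Arl4d: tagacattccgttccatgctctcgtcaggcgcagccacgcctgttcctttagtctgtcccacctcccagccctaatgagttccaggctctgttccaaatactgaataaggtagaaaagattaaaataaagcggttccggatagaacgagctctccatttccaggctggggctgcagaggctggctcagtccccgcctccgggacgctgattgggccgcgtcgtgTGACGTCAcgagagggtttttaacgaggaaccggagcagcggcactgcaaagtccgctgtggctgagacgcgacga
The element was present in windows of this length at the starts of 549 of 27025 RefSeq genes (2.03%). A match describes letters and not a bound site.

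Another 9 genes had the next smallest p among those with lower levels in ligated hippocampus, none past the adjusted threshold. Lingo3, a leucine-rich repeat membrane protein of neurons, stood at 41.8, 45.7 and 28.7 CPM in Sham 1, 2 and 3, at 13.7, 20.1 and 17.2 CPM in SNL 1, 2 and 3, and at 16.7, 19.8 and 17.7 CPM in CBD 1, 2 and 3. All 6 ligated libraries lay below the lowest sham library, Sham 3 (log2 fold change -1.14, SE 0.15, edgeR adjusted p = 0.0638). Cacng8, an auxiliary subunit that anchors AMPA receptors in hippocampal neurons, stood at 116, 114 and 69.7 CPM in Sham 1, 2 and 3, at 37.9, 47.7 and 53.4 CPM in SNL 1, 2 and 3, and at 40.3, 52.1 and 51.1 CPM in CBD 1, 2 and 3. Here too Sham 3 was the lowest sham library and still above every ligated one (log2 fold change -1.08, SE 0.16, edgeR adjusted p = 0.106). Lingo3 was -1.19 in SNL and -1.10 in CBD on the log2 scale, and Cacng8 -1.10 and -1.06. With offsets for transcript GC content and length in the fit, the pooled log2 fold changes were smaller. Lingo3 was then at -0.88 (edgeR adjusted p = 0.353) and Cacng8 at -0.73 (edgeR adjusted p = 0.355).

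Plekhf1, an endosomal adaptor with a lipid-binding FYVE domain, stood at 8.67, 8.29 and 9.84 CPM in Sham 1, 2 and 3, at 3.79, 4.36 and 3.35 CPM in SNL 1, 2 and 3, and at 5.58, 4.03 and 3.94 CPM in CBD 1, 2 and 3, and no ligated library reached the lowest sham value. Adra1d, an alpha-1 adrenergic receptor, ranged over 26.5 to 50.5 CPM in sham and 14.5 to 21.7 CPM in the ligated libraries (log2 fold change -1.25, SE 0.20). Kcng2, a modifier subunit of voltage-gated potassium channels, ranged over 14.4 to 26.2 CPM in sham and 6.68 to 11.6 CPM in the ligated libraries (log2 fold change -1.27, SE 0.21). Spsb1, a substrate adaptor of a ubiquitin ligase, had a log2 fold change of -0.78, Spns2, an exporter of sphingosine-1-phosphate, one of -0.56, and Speg, a muscle-type kinase also expressed in brain, one of -0.78. In each of these the ranges of sham and ligated libraries did not overlap. By the smaller of both group folds, the lower genes with the largest difference in each ligated group also took in Egr4, Rtn4rl2 (a Nogo receptor relative), Mafa (a transcription factor) and Ifi27l2a, at -1.25, -1.20, -1.20 and -2.04.

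**Figure D2:**
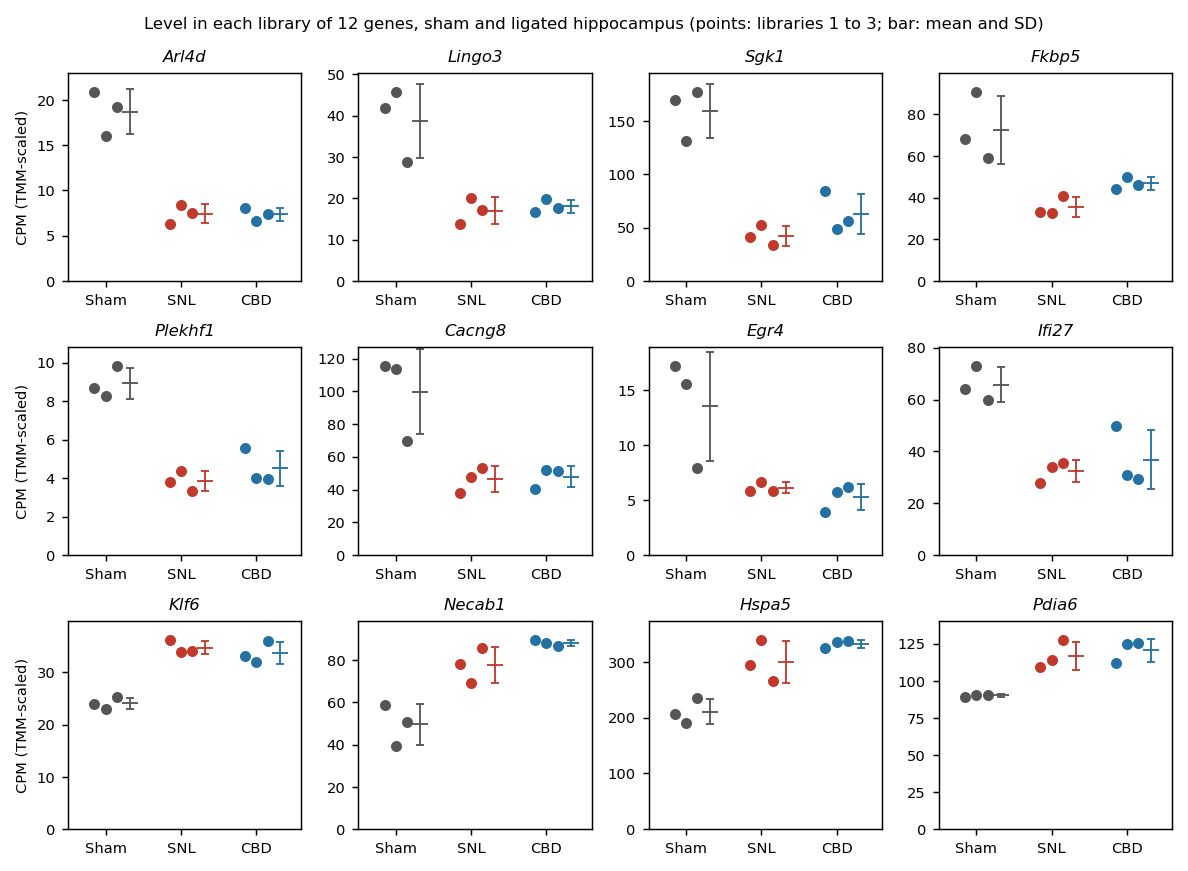
Level of 12 genes in each library (points, CPM on a linear axis from 0), with the mean and SD of each group of 3 beside them. For Arl4d the 3 sham libraries lie between 16.0 and 20.9 CPM and the 6 ligated libraries between 6.30 and 8.41 CPM, and in all 12 panels no ligated library overlaps the sham libraries.

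Among genes with higher levels in ligated hippocampus, Klf6 and Necab1 had the smallest p. Klf6, a zinc finger transcription factor induced by injury and growth factors, stood at 23.9, 23 and 25.2 CPM in Sham 1, 2 and 3, at 36.2, 33.9 and 34.1 CPM in SNL 1, 2 and 3, and at 33.2, 32 and 36.0 CPM in CBD 1, 2 and 3. Every ligated library lay above the sham range by more than that range itself (log2 fold change 0.51, SE 0.09, edgeR adjusted p = 0.134). Necab1, a neuronal calcium-binding protein, stood at 58.7, 39.3 and 50.6 CPM in Sham 1, 2 and 3, at 78.2, 68.9 and 85.8 CPM in SNL 1, 2 and 3, and at 89.4, 87.8 and 86.7 CPM in CBD 1, 2 and 3, also without overlap (log2 fold change 0.74, SE 0.13). The log2 fold change of Klf6 was 0.53 in SNL and 0.49 in CBD, and that of Necab1 0.65 and 0.83.

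Casq2, which binds calcium in the ER lumen, ranged over 2.02 to 2.65 CPM in sham and 3.68 to 7.05 CPM in the ligated libraries (log2 fold change 1.15, SE 0.23). Kcnip4, a subunit of A-type potassium channels, ranged over 38.6 to 45.5 CPM in sham and 52.2 to 65.9 CPM in the ligated libraries (log2 fold change 0.49, SE 0.10). Sh2d1a, an adaptor known from lymphocyte signalling, ranged over 8.06 to 9.43 CPM in sham and 11.1 to 17.6 CPM in the ligated libraries (log2 fold change 0.77, SE 0.17). Gpr137c and Krcc1 each had a log2 fold change of 0.54, with every ligated library above sham. Amy1, salivary amylase, was at 0.68, but it has near-identical copies among which reads may be shared unevenly, so its value is uncertain. The ER chaperones Hspa5 and Pdia6 complete the 10 higher genes with the smallest p and are given with their list. None of these 10 passed the adjusted threshold, and their adjusted p lay between 0.134 and 0.169 in edgeR.

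Other genes led the higher side by the smaller of both group folds. Pdlim3 and Nexn, which bind actin filaments, were at 1.29 (SE 0.30) and 1.29 (SE 0.37) on the log2 scale. Trpm6, a magnesium-permeable channel, ranged over 0.910 to 1.48 CPM in sham and 1.86 to 4.10 CPM in the ligated libraries, and Cbln1, a secreted synapse organiser, over 3.94 to 21.8 CPM in sham and 23.6 to 42.1 CPM in the ligated libraries. Abhd12b was at 1.81 (SE 0.54), with SNL 2 alone at 45.1 CPM. Xlr3b and Xlr3a, X-linked near-identical copies, were at 2.20 and 1.34, and how reads were divided between them is uncertain. Avp, the vasopressin precursor, stood at 0.0510 to 0.303 CPM in sham, at 0.463 to 3.50 CPM in 5 ligated libraries and at 80.5 CPM in CBD 1.

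Between SNL and CBD, the 20 genes with the smallest p differed by less than each ligated group differed from sham. Only Sgk1 among the 10 lower genes, and none of the 10 higher genes, differed between the ligated groups at an unadjusted p under 0.05. The absolute difference between CBD and SNL ran from 0.01 to 0.57 on the log2 scale over the lower genes and from 0.01 to 0.26 over the higher genes. These 20 genes were chosen by p in the pooled fit, where a difference between SNL and CBD adds to the spread. Small differences between the ligated groups are thus partly fixed by that choice and are no evidence of likeness. A p that misses the threshold does not show that the ligated groups were alike either.

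Most genes of the glucocorticoid response list had lower levels in ligated hippocampus, with Sgk1, Plin4 and Cebpb among the lowest. Of its 30 members, all tested, 28 had lower and 2 higher levels in ligated hippocampus, beside 48.4% lower and 51.6% higher over all tested genes. Its median log2 fold change was -0.49, against 0.01 for all genes. In 14 members all 6 ligated libraries lay below all 3 sham libraries, beside 3.23% over all tested genes, and in 0 they lay above. Unadjusted p was under 0.05 for 18 lower members, beside 7.64% over all tested genes, and for 0 higher ones, and no member passed the adjusted threshold. The list was chosen with earlier results of these samples known and is not independent evidence of its direction.

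Sgk1, a kinase induced by glucocorticoid and mineralocorticoid receptors, stood at 170.0, 131 and 178 CPM in Sham 1, 2 and 3, at 41.6, 52.3 and 33.4 CPM in SNL 1, 2 and 3, and at 84.2, 49.1 and 56.0 CPM in CBD 1, 2 and 3. Its highest ligated library, CBD 1, was still well under the lowest sham library. Means were 159.6 ± 25.0 CPM in sham (SD, n = 3) and 52.8 ± 17.4 CPM in ligated hippocampus (SD, n = 6), with a log2 fold change of -1.60 (SE 0.23, edgeR adjusted p = 0.106). Sgk1 was -1.91 in SNL and -1.34 in CBD, and the CBD level exceeded the SNL level by 0.57 (SE 0.23), which did not pass the adjusted threshold (edgeR adjusted p = 0.332). When single libraries were left out, its log2 fold change ran from -1.78 (without CBD 1) to -1.49 (without SNL 3), and edgeR's adjusted p was 0.00313 without CBD 1, 0.0376 without Sham 3 and between 0.0987 and 0.547 without each of the others, the highest without Sham 1. Fkbp5, the co-chaperone through which the receptor limits its own activity, stood at 67.9, 90.8 and 59.1 CPM in Sham 1, 2 and 3, at 32.9, 32.7 and 41.0 CPM in SNL 1, 2 and 3, and at 44.3, 50.1 and 46.0 CPM in CBD 1, 2 and 3. All 6 ligated libraries were below sham, with the 3 SNL libraries below the 3 CBD libraries (log2 fold change -0.82, SE 0.16, edgeR adjusted p = 0.140).

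Transcription factors of the list lay lower as well. Klf9, a factor that hormone-bound receptor induces, ranged over 184 to 219 CPM in sham and 124 to 161 CPM in the ligated libraries (-0.48 on the log2 scale, SE 0.11). Bcl6, a repressor, ranged over 36.8 to 52.3 CPM in sham and 22.9 to 34.0 CPM in the ligated libraries (log2 fold change -0.72, SE 0.14), and Cebpb, a leucine zipper factor, over 8.0 to 14.2 CPM in sham and 2.84 to 7.36 CPM in the ligated libraries (log2 fold change -1.20, SE 0.26). None of the 3 overlapped sham. Zbtb16 at -0.89 (SE 0.27) and Cebpd at -1.0 (SE 0.26) did overlap.

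Metabolic and signalling targets lay on the same side. Plin4, a lipid droplet protein, ranged over 8.72 to 14.1 CPM in sham and 2.5 to 6.81 CPM in the ligated libraries (-1.34 on the log2 scale, SE 0.27). Arrdc2, an arrestin-domain protein, was at -0.85 (SE 0.16), Ddit4, an inhibitor of mTOR, at -0.72 (SE 0.23), and Gpd1, a glycerol phosphate dehydrogenase, at -0.61 (SE 0.16). Hif3a ranged over 8.82 to 12.3 CPM in sham and 2.87 to 8.41 CPM in the ligated libraries, and its log2 fold change was -1.85 in SNL and -0.67 in CBD. Several members also answer to other signals: Nfkbia to NF-kB, Per1 to the circadian clock, and Ddit4 to low oxygen. Tsc22d3, also called GILZ, a standard glucocorticoid target, overlapped between the groups at 80.5 to 113 CPM in sham and 60.0 to 94.0 CPM in the ligated libraries (log2 fold change -0.28, SE 0.15). Members with higher levels were Dusp1 at 0.33, where SNL 2 held 29.2 CPM, and Lcn2 at 2.59 (SE 1.22), listed at 0 in Sham 1.

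Per library, the list's median difference from the sham mean ran from 0.00 to 0.12 in sham and from -0.69 to -0.36 in the ligated libraries, which did not overlap. The list's median was -0.54 in SNL and -0.53 in CBD, each against the same sham libraries. It was -0.50 without the 3 libraries with high Pmch. Nr3c1, the glucocorticoid receptor itself, stood at 73.5, 68.6 and 76.0 CPM in Sham 1, 2 and 3, at 80.3, 99.4 and 82.0 CPM in SNL 1, 2 and 3, and at 97.0, 95.6 and 124 CPM in CBD 1, 2 and 3. All 6 ligated libraries were above sham (log2 fold change 0.41, SE 0.13, edgeR adjusted p = 0.243) and it was 0.26 in SNL and 0.54 in CBD, a difference of 0.27 (SE 0.13). Ptges3, a co-chaperone of the receptor, also lay above sham in all 6 (log2 fold change 0.28, SE 0.11), beside 2.6% over all tested genes. Nr3c2, the mineralocorticoid receptor, overlapped at 108 to 161 CPM in sham and 56.0 to 156 CPM in the ligated libraries, and the 13 genes of the list of corticosteroid receptors and CRH signalling had a median of -0.05, with 6 higher and 7 lower.

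The Sgk1 promoter is shown as the member with the largest lower fold among the 14, at the start that holds a receptor motif, 1 of 6 annotated starts (chr10:21993640-21993939, plus strand, GRCm38.p6, RefSeq). Capitals mark matches to GNACANNNTGTNC, the paired binding letters of the glucocorticoid receptor, searched on both strands.
Sgk1: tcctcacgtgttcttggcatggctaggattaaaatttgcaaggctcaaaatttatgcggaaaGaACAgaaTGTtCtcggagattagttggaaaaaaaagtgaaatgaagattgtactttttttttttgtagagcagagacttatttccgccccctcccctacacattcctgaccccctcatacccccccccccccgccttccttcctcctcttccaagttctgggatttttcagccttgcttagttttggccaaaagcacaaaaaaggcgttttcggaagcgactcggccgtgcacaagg
The motif was present in the window from 250 bases before to 50 after a start in 4 of 26 matched members (15.4%), Sgk1, Mt1, Map3k6 and Fam107a, and in 145 of 27025 RefSeq genes (0.537%). Receptor sites often lie far from starts, and a window without these letters says nothing of the receptor.

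**Figure D3:**
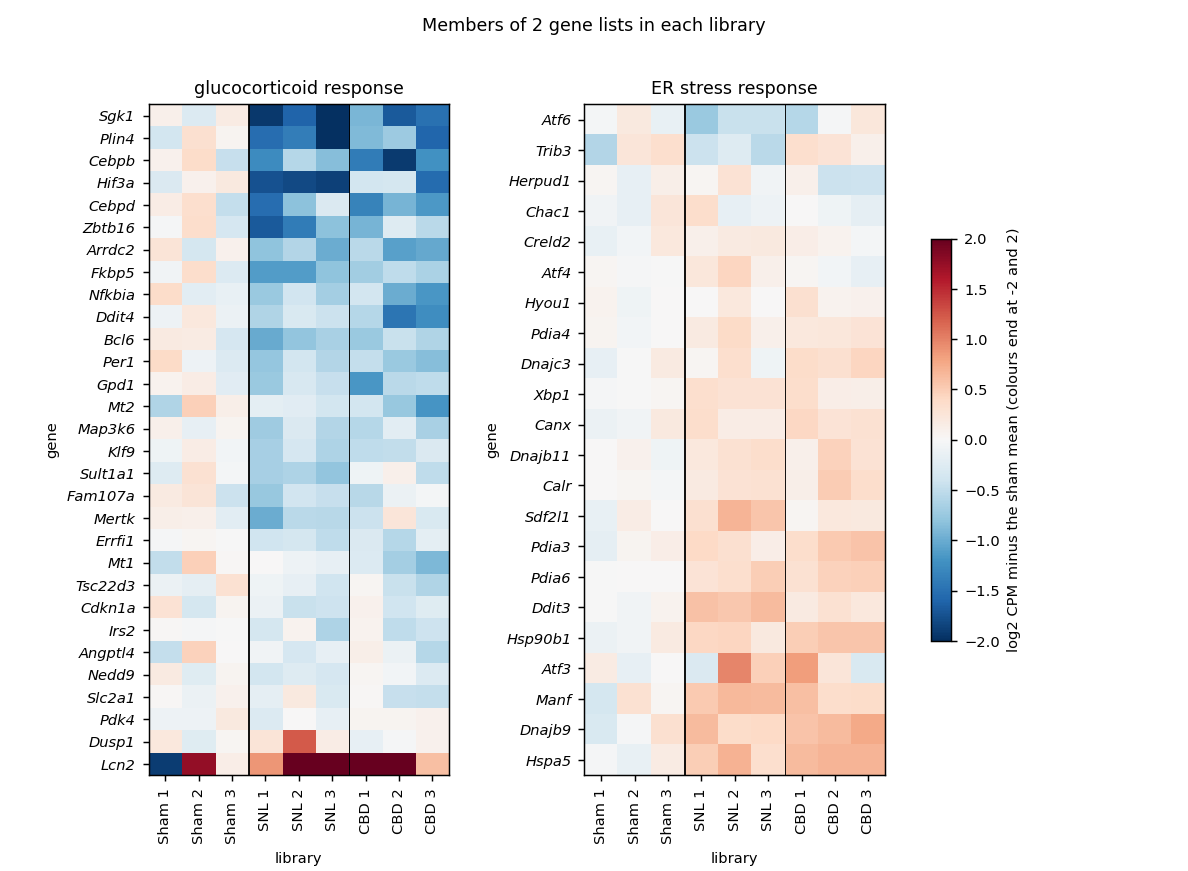
Each row is a gene and each column a library; colour is log2 CPM minus the mean of the 3 sham libraries, with colours ending at -2 and 2, and black lines part sham, SNL and CBD. Of 30 glucocorticoid response genes 28 were lower in ligated libraries and of 22 ER stress response genes 18 were higher, with Sgk1 at the head of the glucocorticoid panel and Hspa5 at the foot of the ER panel, rows being sorted by fold change.

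The ER stress response list lay to the other side. Of 22 members, all tested, 18 had higher and 4 lower levels in ligated hippocampus, and the median log2 fold change was 0.28 beside 0.01 for all genes. In 11 members every ligated library exceeded every sham library, beside 2.6% over all genes, and in 12 the unadjusted p was under 0.05, beside 5.74% higher over all genes. No member passed the adjusted threshold. The members that led are chaperones and disulfide isomerases of the ER lumen.

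Hspa5, the main chaperone of the ER, known as BiP, stood at 207, 191 and 235 CPM in Sham 1, 2 and 3, at 295, 339.7 and 265 CPM in SNL 1, 2 and 3, and at 325, 336 and 338 CPM in CBD 1, 2 and 3. The ligated libraries began above the highest sham library, Sham 3, and CBD values were within the SNL range. Means were 211 ± 22.7 CPM in sham (SD, n = 3) and 316 ± 30.2 CPM in ligated hippocampus (SD, n = 6), with a log2 fold change of 0.58 (SE 0.12, edgeR adjusted p = 0.140). Hsp90b1, the ER form of the Hsp90 chaperones, stood at 279, 288 and 342 CPM in Sham 1, 2 and 3, at 404, 406 and 347 CPM in SNL 1, 2 and 3, and at 424, 446 and 442 CPM in CBD 1, 2 and 3. Pdia6, a disulfide isomerase, stood at 89.2, 90.7 and 90.6 CPM in Sham 1, 2 and 3, at 109, 114 and 128 CPM in SNL 1, 2 and 3, and at 112, 125 and 126 CPM in CBD 1, 2 and 3. Neither gene overlapped between sham and ligated libraries, and the log2 fold changes were 0.44 (SE 0.11) and 0.40 (SE 0.09).

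Dnajb9, a co-chaperone of Hspa5, ranged over 22.4 to 34.7 CPM in sham and 35.7 to 46.7 CPM in the ligated libraries (0.54 on the log2 scale, SE 0.14). Manf, a secreted factor of the ER with neurotrophic action, ranged over 26.9 to 42.3 CPM in sham and 43.6 to 53.7 CPM in the ligated libraries (log2 fold change 0.50, SE 0.14). Pdia3 was at 0.39 (SE 0.12), Dnajb11 at 0.29 (SE 0.10), Calr, which folds glycoproteins, at 0.30 (SE 0.11), and Pdia4 at 0.23 (SE 0.09), all without overlap.

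Among the sensors and transcription factors, Xbp1 stood above sham in all 6 libraries (log2 fold change 0.26, SE 0.09), as did Ddit3, the CHOP factor of prolonged stress, at 14.6 to 16.1 CPM in sham and 17.3 to 23.9 CPM in the ligated libraries (log2 fold change 0.42, SE 0.13). Atf4, which drives the amino acid branch of the response, overlapped at 102 to 107 CPM in sham and 92.8 to 140.0 CPM in the ligated libraries, and its targets Trib3 and Chac1 were at -0.12 (SE 0.38) and -0.03 (SE 0.17). Atf6 was at -0.30 (SE 0.19) and Herpud1, of ER-associated degradation, at -0.06 (SE 0.16), both overlapping. Per library, the list's median difference from the sham mean ran from -0.03 to 0.06 in sham and from 0.20 to 0.33 in the ligated libraries. It was 0.27 in SNL and 0.26 in CBD, and 0.25 without the libraries with high Pmch.

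Heat shock and folding genes outside the ER were mixed: 12 of 16 higher, median 0.16, with sham and ligated libraries overlapping per library. Hspa8, the constitutive cytosolic chaperone, was the 1 member above sham in all 6 ligated libraries (log2 fold change 0.23, SE 0.10). Over all tested genes the share was 2.6%. The inducible Hspa1a was at -0.50 (SE 0.20) and Hspa1b at -0.61 (SE 0.27), a pair of near-identical genes whose separate values are uncertain.

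Promoters of 3 ER genes with non-overlapping levels are shown because they share the ER stress response element, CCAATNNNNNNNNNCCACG, which factors of the unfolded protein response bind. They are Hspa5 (chr2:34771840-34772139, plus strand), Pdia6 (chr12:17266339-17266638, plus strand) and Hsp90b1 (chr10:86705395-86705694, minus strand), each of 300 bases from RefSeq on GRCm38.p6. Capitals mark every match on either strand.
Hspa5: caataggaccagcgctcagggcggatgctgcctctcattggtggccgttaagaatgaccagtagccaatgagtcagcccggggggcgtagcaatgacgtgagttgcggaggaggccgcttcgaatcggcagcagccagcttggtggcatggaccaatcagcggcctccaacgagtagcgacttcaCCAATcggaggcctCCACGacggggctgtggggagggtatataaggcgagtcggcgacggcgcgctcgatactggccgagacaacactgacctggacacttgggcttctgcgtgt
Pdia6: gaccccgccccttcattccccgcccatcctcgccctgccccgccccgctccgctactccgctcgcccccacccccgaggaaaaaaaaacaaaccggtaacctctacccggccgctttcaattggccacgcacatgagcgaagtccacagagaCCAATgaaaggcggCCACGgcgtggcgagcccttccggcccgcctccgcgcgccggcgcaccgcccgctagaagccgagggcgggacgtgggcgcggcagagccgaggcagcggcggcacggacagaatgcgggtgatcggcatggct
Hsp90b1: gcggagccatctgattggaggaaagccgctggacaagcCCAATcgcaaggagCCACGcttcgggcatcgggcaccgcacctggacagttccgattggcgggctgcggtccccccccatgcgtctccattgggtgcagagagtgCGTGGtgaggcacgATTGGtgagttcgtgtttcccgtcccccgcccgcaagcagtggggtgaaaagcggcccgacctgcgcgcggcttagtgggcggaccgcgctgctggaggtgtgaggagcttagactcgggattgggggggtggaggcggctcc
The element was found in 7 of 19 matched members (36.8%), namely Hspa5, Hsp90b1, Pdia6, Creld2, Dnajc3, Calr and Canx, and in 37 of 27025 RefSeq genes (0.137%). Of these 7 members, 3 overlapped with sham: Creld2, with a log2 fold change of 0.10 (SE 0.12), Dnajc3, with 0.24 (SE 0.13), and Canx, with 0.27 (SE 0.11).

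Immediate early genes lay lower on the whole, with exceptions, and sham and ligated libraries overlapped. Per library the list's median difference from the sham mean was -0.26 to 0.19 in sham, lowest in Sham 3, and -0.53 to -0.08 in the ligated libraries. Of 25 members 18 had lower and 7 higher levels, and the median was -0.35. It was -0.20 once offsets for transcript GC content and length were used. Egr4, an activity-induced zinc finger factor, stood at 17.2, 15.5 and 7.90 CPM in Sham 1, 2 and 3, at 5.78, 6.68 and 5.84 CPM in SNL 1, 2 and 3, and at 3.90, 5.73 and 6.14 CPM in CBD 1, 2 and 3, with Sham 3 only a little above the ligated libraries (-1.25 on the log2 scale, SE 0.23). Dusp5, a phosphatase of ERK, was at -0.83 (SE 0.19), Jun at -0.57 (SE 0.14) and Fosb at -0.62 (SE 0.18), and none of the 3 overlapped. Junb, at -0.69 (SE 0.16), did overlap. Fos itself overlapped at 4.90 to 7.95 CPM in sham and 3.97 to 17.9 CPM in the ligated libraries; its log2 fold change was 0.79 in SNL and -0.30 in CBD, and the pooled value of 0.35 turned to -0.53 without the libraries with high Pmch. Unadjusted edgeR p was under 0.05 for 11 lower members, beside 7.64% over all tested genes. The 2 higher members under 0.05, beside 5.74%, were Klf6 and Ier3 (log2 fold change 0.95, SE 0.28). All ligated libraries lay below sham for 5 members, beside 3.23% over all tested genes, and above it for 1, beside 2.6%.

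Interferon-induced genes stood apart in 5 of the 6 ligated libraries. Of 22 tested members 21 had lower levels, with a median of -0.64, and 1 lay below sham without overlap (3.23% over all tested genes). Per library the median difference from the sham mean was -0.19 to 0.34 in sham and -1.35 to -0.99 in SNL 1, 2 and 3, CBD 2 and CBD 3, while CBD 1 stood at 0.92. Without CBD 1 the list's median was -1.19, and without Sham 3 it was -0.34. Ifi27, an interferon-induced mitochondrial protein, stood at 64.3, 73.0 and 60.0 CPM in Sham 1, 2 and 3, at 27.8, 34.0 and 35.6 CPM in SNL 1, 2 and 3, and at 49.8, 30.8 and 29.5 CPM in CBD 1, 2 and 3, the only member without overlap (log2 fold change -0.93, SE 0.16, edgeR adjusted p = 0.134). Irf7, the factor that amplifies interferon production, stood at 16.6, 13.5 and 20.1 CPM in Sham 1, 2 and 3, at 3.15, 4.68 and 2.5 CPM in SNL 1, 2 and 3, and at 25.8, 2.53 and 2.32 CPM in CBD 1, 2 and 3. Its 5 lower ligated libraries held at most 4.68 CPM, and CBD 1 exceeded every sham library. Lgals3bp, a secreted glycoprotein, stood at 84.0, 57.0 and 80.7 CPM in Sham 1, 2 and 3, at 19.0, 31.6 and 19.2 CPM in SNL 1, 2 and 3, and at 67.6, 20.5 and 19.2 CPM in CBD 1, 2 and 3. With CBD 1 left out, edgeR's adjusted p was 0.00381 for Ifi27 and for Lgals3bp, and 0.0259 for Ifi27l2a. With Sham 1 left out it was 0.643 for Ifi27, 0.761 for Lgals3bp and 0.752 for Ifi27l2a, and with Sham 2 left out 0.636, 0.636 and 0.646. Antigen presentation genes had a median of -0.24, with 12 of 16 lower. None of them was without overlap, beside 2.6% higher and 3.23% lower over all tested genes. The list of inflammatory cytokines had a median of 0.04, with 11 of 14 tested members higher. It held 21 genes, of which Ccl2, Ccl3, Ccl4, Il1b, Il1rn, Il6 and Tnf were not tested. Unadjusted edgeR p was under 0.05 for 0 higher and 1 lower member, beside 5.74% and 7.64% over all tested genes.

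Genes of the excitatory synapse were lower on the whole, but Sham 3 lay within the ligated range. Of 24 postsynaptic scaffold genes 22 had lower levels, median -0.41. An unadjusted p under 0.05 was found for 11 lower members (7.64% over all tested genes), and 3 lay below sham without overlap (3.23% over all tested genes): Cacng8, Homer3 and Baiap2. Homer3, a scaffold of metabotropic glutamate receptors, ranged over 37.5 to 76.3 CPM in sham and 20.6 to 33.9 CPM in the ligated libraries (log2 fold change -1.17, SE 0.21). Baiap2, an actin regulator of spines, ranged over 154 to 274 CPM in sham and 97.6 to 153 CPM in the ligated libraries (log2 fold change -0.86, SE 0.20). Per library the list's median difference was 0.23 and 0.17 in Sham 1 and Sham 2, -0.39 in Sham 3, and -0.80 to -0.27 in the ligated libraries. The list's median was -0.27 without Sham 1 and -0.58 without Sham 3, and -0.29 with offsets for GC content and length.

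Receptor and channel genes gave smaller medians. Of 15 ionotropic glutamate receptor genes (median -0.21) 9 were lower. Without overlap lay 2, Grik5 and Grin1, beside 3.23% lower over all tested genes. Grik5, a kainate receptor subunit, ranged over 186 to 302 CPM in sham and 149 to 174 CPM in the ligated libraries (log2 fold change -0.66, SE 0.13). Grin1, the obligate NMDA receptor subunit, ranged over 491 to 681 CPM in sham and 385 to 469 CPM in the ligated libraries (log2 fold change -0.46, SE 0.12). Presynaptic genes had a median of -0.08, with 14 of 20 lower. Syn1, a synaptic vesicle protein, was the 1 member without overlap (log2 fold change -0.31, SE 0.10), beside 3.23% lower over all tested genes. Of 16 genes of GABA-A receptors and GABA synthesis 12 had higher levels (median 0.20). None was free of overlap, beside 2.6% higher and 3.23% lower over all tested genes. Of 30 voltage-gated channel genes 19 had lower levels (median -0.12). Cacna1h, a T-type calcium channel, was at -0.89 (SE 0.18) and Kcnh1 at -0.58 (SE 0.15). Both lay below sham in all 6, beside 3.23% over all tested genes. Kcnc2 at 0.47 (SE 0.16) lay above sham in all 6, beside 2.6%. Neurotrophin and CREB genes had a median of -0.16, with 10 of 17 lower, and Bdnf, the activity-regulated neurotrophin, overlapped at 26.5 to 43.0 CPM in sham and 18.5 to 34.9 CPM in the ligated libraries (log2 fold change -0.41, SE 0.22).

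Targets proposed for cannabidiol and endocannabinoid genes had a median of -0.15, with 12 of 17 tested members lower. Of the 21 genes on the list, Cnr2, Gpr18, Trpa1 and Trpv1 were not tested. Cnr1, the brain cannabinoid receptor, overlapped at 98.3 to 138 CPM in sham and 58.3 to 142 CPM in the ligated libraries, with a log2 fold change of -0.34 in SNL and 0.15 in CBD; the pooled value of -0.08 turned to 0.17 without the libraries with high Pmch. Mgll and Faah, which break down endocannabinoids, were at -0.47 (SE 0.15) and -0.54 (SE 0.21), overlapping with sham. Among 17 tested circadian clock genes 11 had lower levels (median -0.11). Per1, Per3 and Tef lay below sham in all 6 ligated libraries, at -0.65 (SE 0.15), -0.31 (SE 0.10) and -0.25 (SE 0.09). Hlf lay above it (log2 fold change 0.32, SE 0.14). Over all tested genes 3.23% lay below and 2.6% above sham in this way. Per1 is also a member of the glucocorticoid list. The hour at which tissue was taken is not given in the labels.

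**Figure D4:**
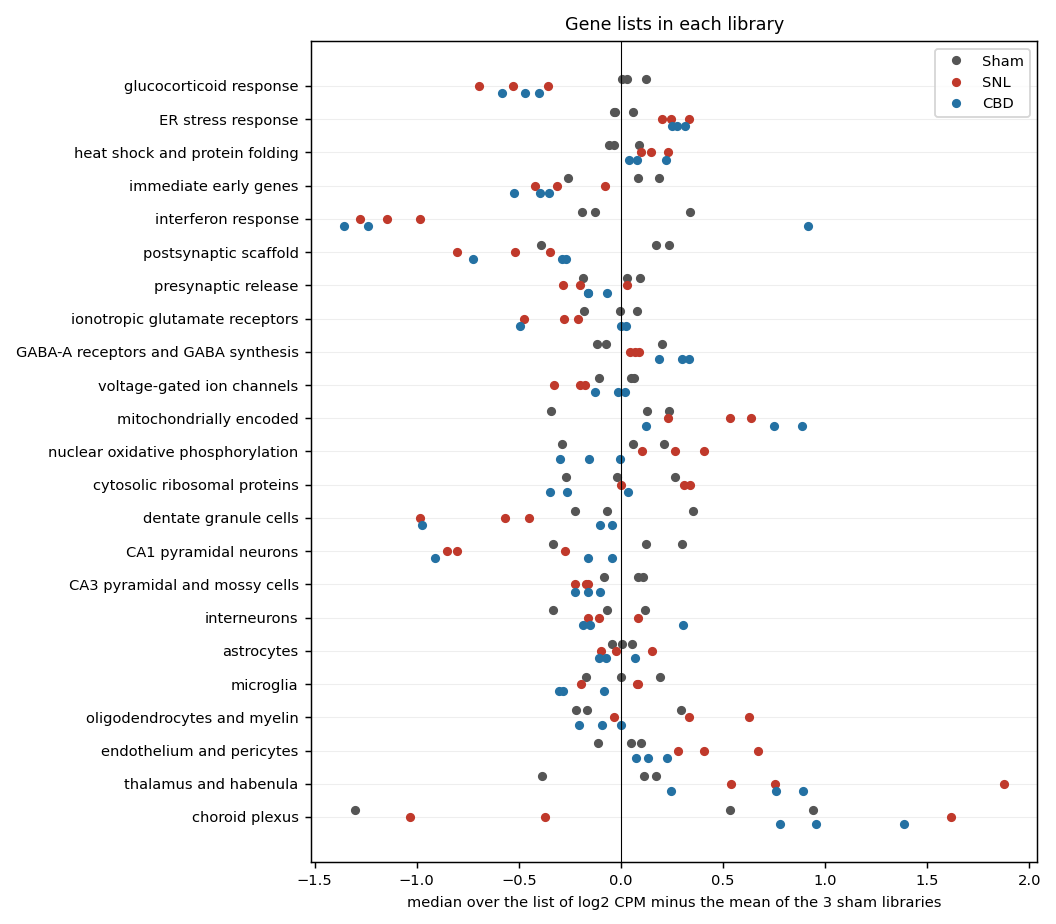
Each point is 1 library; the x axis is the median, over the genes of a list, of log2 CPM minus the mean of the 3 sham libraries, for 23 lists on the y axis, with sham in grey, SNL in red and CBD in blue. The glucocorticoid response points of the 6 ligated libraries lie between -0.69 and -0.36 and the ER stress response points between 0.20 and 0.33, apart from the sham points. Also apart from sham are thalamus and habenula (0.25 to 1.88 in ligated libraries) and CA3 pyramidal and mossy cells (-0.22 to -0.10). CBD 1 alone of the ligated libraries lies right of 0 for interferon response, at 0.92.

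Markers of excitatory neurons had lower levels in ligated libraries, and in whole tissue fewer cells of a type cannot be told apart from less RNA per cell. Dentate granule cell markers were lower for 13 of 14 genes (median -0.45), CA1 markers for 10 of 11 tested genes (median -0.36) and CA3 and mossy cell markers for 9 of 13 (median -0.24). C1ql2 was at -1.08 (SE 0.24) and C1ql3 at -0.83 (SE 0.20), both without overlap, beside 3.23% lower over all tested genes. Calb1, also a granule cell gene, was at 0.27 (SE 0.12). Per library, dentate markers were at -0.98 to -0.45 in the 3 SNL libraries and in CBD 1 at -0.97, but at -0.10 and -0.04 in CBD 2 and CBD 3, within the sham range of -0.23 to 0.35. For CA1 markers Sham 3, at -0.33, lay within the ligated range of -0.91 to -0.04. The CA1 median was -0.13 without Sham 1 and -0.52 without Sham 3, and the dentate median -0.30 without Sham 2. Without the libraries with high Pmch the dentate, CA1 and CA3 medians were -0.20, -0.18 and -0.04. The part of these markers in the lower synaptic genes was not tested.

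Markers of thalamus and habenula were higher for all 17 tested genes, with a median of 0.87, or 0.54 without the libraries with high Pmch. Per library their median difference was -0.39 to 0.17 in sham and 0.25 to 1.88 in the ligated libraries, highest in SNL 2. Unadjusted edgeR p was under 0.05 for 8 higher members, beside 5.74% over all tested genes. All ligated libraries lay above sham for 4 members, beside 2.6% over all tested genes. Tcf7l2, a transcription factor of thalamic neurons, ranged over 30.5 to 66.7 CPM in sham and 70.4 to 159 CPM in the ligated libraries (log2 fold change 0.96, SE 0.31). Of 15 hypothalamus markers 13 passed the filter on low counts, and 6 did without those 3 libraries; the other 7 passed only with them. The median was 2.08 over the 13 genes and 0.19 over the 6 genes without those libraries, values for different sets of genes that support no difference. Hcrt, the orexin precursor, was listed at 0 in Sham 1, Sham 2, CBD 2 and CBD 3 and at 60.3 CPM in SNL 1. Choroid plexus markers were higher for all 17 genes, with a median of 0.45 that was 0.07 without Sham 2. Of these markers 0 had an unadjusted edgeR p under 0.05, beside 5.74% higher over all tested genes. Their part in the higher levels of other genes was not tested. Without the libraries with high Pmch the ER stress and glucocorticoid medians were 0.25 and -0.50, but the thalamus and habenula median was still 0.54. Leaving those libraries out therefore did not remove markers of neighbouring tissue, and the part of such tissue in either list was not tested.

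Vessel markers lay higher. Of 17 genes of endothelium and pericytes 16 had higher levels, with a median of 0.36 (0.24 without the libraries with high Pmch), and 5 lay above sham without overlap, beside 2.6% over all tested genes. Rgs5, a pericyte gene, ranged over 89.1 to 114 CPM in sham and 123 to 158 CPM in the ligated libraries (log2 fold change 0.48, SE 0.12). Flt1, a receptor for vascular endothelial growth factor, ranged over 62.2 to 74.1 CPM in sham and 82.6 to 123 CPM in the ligated libraries (log2 fold change 0.52, SE 0.13). Slco1a4, a transporter of the blood-brain barrier, was at 0.48 (SE 0.13) and Tek, the angiopoietin receptor, at 0.46 (SE 0.14). Among other cell types, astrocyte markers had a median of 0.00 (7 of 14 higher), microglial markers -0.07 (5 of 16 higher) and interneuron markers -0.11 (5 of 14 higher). Gfap, the astrocyte filament, overlapped at 343 to 455 CPM in sham and 302 to 413 CPM in the ligated libraries, and Aif1, a microglial gene, at 4.18 to 6.93 CPM in sham and 3.72 to 7.70 CPM in the ligated libraries.

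Mitochondrially encoded transcripts took 3.20% to 4.56% of counts in sham (mean 4.03 ± 0.723, SD, n = 3) and 4.52% to 6.65% in ligated libraries (mean 5.68 ± 0.895, SD, n = 6), ranges that touch. All 13 had higher levels (median 0.51), 8 at an unadjusted p under 0.05 (5.74% over all tested genes) and 0 without overlap (2.6%), and the median was 0.20 with offsets for GC content and length. The 40 nuclear genes of oxidative phosphorylation had a median of 0.04, which joined 0.26 in SNL to -0.18 in CBD, and the 42 cytosolic ribosomal protein genes 0.01, from 0.20 in SNL and -0.21 in CBD. Myelin genes had a median of 0.10, from 0.32 in SNL and -0.14 in CBD. For these 3 lists the pooled median does not describe either ligated group.

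Fold changes were lower for genes rich in G and C. Across the tested genes with a transcript in the older annotation (98.2%), Spearman's rho of the log2 fold change with transcript GC content was -0.404 and with length -0.0174, a description across genes, which are not independent replicates. With offsets for GC content and length in the fit, 953 higher and 948 lower genes had an unadjusted p under 0.05, Arl4d had a log2 fold change of -1.28 and an edgeR adjusted p of 0.0428, and the ER stress and glucocorticoid medians were 0.28 and -0.44. Of the 467 and 581 genes without overlap, 239 and 267 were also without overlap on that scale.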

How the data were processed

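RNA was measured by RNA-seq in 9 hippocampal libraries, 3 each of sham, SNL and CBD. Per the labels' protocols, RNA was extracted with TRIzol and a SMARTER mRNA kit was used. The authors deposited expected counts per gene, estimated by RSEM on GRCm39 per the submitters' processing notes. Not given in the sources used here: versions, aligner, annotation and read filters. RSEM divides reads among transcripts, so genes with near-identical copies are uncertain, and 18.3% to 24.8% of values were not whole.

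From the 57010 deposited genes, the expected counts were rounded and filtered by edgeR's filterByExpr (17967 kept), and libraries were scaled by TMM. The test was edgeR 4.0.16's quasi-likelihood F test (R 4.3.3) with 1 factor of 2 levels and 7 residual degrees of freedom, adjusted by Benjamini-Hochberg over all tested genes, at an adjusted p under 0.05. Values in SNL and CBD came from a fit of 3 groups with 6 residual degrees of freedom. The SE was taken as |log2 fold change| over the root of the F statistic. Values per library use log2 of CPM plus 0.1. The SD over 6 ligated libraries spans both treatments. No libraries were alike within sampling noise: the chi-square per gene between libraries, near 1 for counting noise alone, was 6.59 for CBD 2 against CBD 3 and 16.6 to 75.7 for the other pairs, so each was counted as 1 sample, and depths of 16972620 to 20470546 counts limit precision for rare genes.

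Genes were named by rule: the 10 smallest p in each direction, up to 8 in each direction by the smaller of both group folds (only genes without overlap and with a mean of at least 1 CPM), up to 4 members of each list by p, and fixed anchor genes; other list members are given to describe their list. A gene that the rule names is not reported here. The members and the 36 gene lists were chosen with earlier results of these data known. Lists are described by counts and medians, with no test of a list. Alternatives were DESeq2 1.42.0, limma 3.58.1 with sample weights, other scalings and filters, a replicate block, offsets for GC content and length, and leaving out libraries. On simulated data for this comparison (17697 genes) the test recovered 20.9% of 1.5-fold, 61.2% of 2-fold and 95.5% of 4-fold changes, and 7.8% of its calls were false. The simulated counts were independent, with no difference between SNL and CBD, no trend with GC content and no neighbouring tissue. These shares therefore may not hold for the real libraries. Promoter sequences are RefSeq's on GRCm38.p6, matched by symbol.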

Additional observations from a re-analysis of the deposited data

Results flagged for a closer look

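Among the ligated libraries, 1 library stood far from the other 5 for 12 named genes and for 2 gene lists; 189 sets of values were examined, and chance alone flags about 1 in 20 groups. In CBD 1, Irf9 was at 31.5 CPM, where the other 5 ligated libraries held at most 16.6 CPM, and the interferon response list had a median difference from sham of 0.92, where the other 5 held -1.35 to -0.99. CBD 1 was also apart on the high side for Avp at 80.5 CPM and for the median of a list of striatal markers at 1.34. On the low side it was apart for Egr4 at 3.90 CPM and for Pou3f1, a CA1 marker, at 9.91 CPM.

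In SNL 2 the thalamic markers Ntng1 and Synpo2 stood at 171 and 140.5 CPM, where the other 5 ligated libraries held at most 94.4 and 65.2 CPM. SNL 2 was also apart on the high side for Cyth1 at 109.9 CPM, Per2 at 38.0 CPM and the chemokine Cxcl12 at 104 CPM. The same held for the inducible heat shock genes Hspa1a at 17.4 CPM and Hspa1b at 20.7 CPM. On the low side it was apart for the kainate receptor subunit Grik4, at 23.8 CPM where the other 5 held at least 38.3 CPM.

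Nuclear oxidative phosphorylation genes lay on opposite sides of the sham mean in the ligated groups, with sham libraries themselves from -0.29 to 0.21. The median of the 3 SNL libraries was 0.26 and each was above 0, while that of the 3 CBD libraries was -0.15 and each was below 0. The difference was not tested for the list.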

How the results depend on the processing

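Arl4d kept its direction in each alternative that was run, with a log2 fold change between -1.45 and -1.26 when single libraries were left out. With the replicate block its value was -1.34 at an edgeR adjusted p of 0.0667, no longer past the threshold, and 0 genes were called lower. Correlations ran from -0.266 to 0.191 for same-numbered libraries of different groups and from -0.27 to 0.31 for unlike-numbered ones. They gave no sign that replicate numbers pair the samples, but so few libraries cannot exclude it. Genes called higher and lower numbered 0 and 2 in limma with sample weights, in a fit of 3 groups with SNL and CBD averaged and at an adjusted p under 0.1, 3 and 39 with no filter, and 120 and 259 in DESeq2. Without SNL 1, SNL 2 and CBD 1, the libraries with high Pmch, they numbered 1 and 18. Leaving out single libraries gave 0 to 68 higher and 0 to 168 lower, both most without Sham 3; without Sham 1 edgeR called none, with 530 higher and 647 lower at an unadjusted p under 0.05, and without CBD 1 18 were lower. Arl4d was among the lower genes wherever any was called. Genes without overlap numbered 564 to 1924 (higher) and 585 to 2051 (lower) when single libraries were left out, and 1566 and 1509 without the libraries with high Pmch; fewer libraries overlap less by construction. The other scalings moved the median of all genes by under 0.1.

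Without the libraries with high Pmch, list medians were 0.19 for hypothalamus, 0.088 for neurogenesis, -0.039 for CA3 and -0.060 for neurotrophin genes. With GC and length offsets they were 0.20 for mitochondrially encoded, -0.13 for CA3, -0.026 for neurotrophin and 0.011 for circadian genes, and limma gave -0.30 for CA3. Leaving out single libraries gave -0.32 to -0.10 for CA3, -0.25 to -0.048 for neurotrophin, 0.11 to 0.24 for heat shock, -0.095 to 0.031 for corticosteroid receptor and -0.42 to 0.73 for blood genes. Aif1 turned to -0.011 in limma and ran from -0.046 to 0.35 when single libraries were left out. Cnr1 ran from -0.19 to 0.056 and Fos from -0.0069 to 0.50 in the same way, and without the libraries with high Pmch they were 0.17 and -0.53. Of 153 named genes, 150 kept their direction in each alternative that tested them. Hcrt, Pmch and Avp were not tested in every one. Apart from the anchors, these genes were chosen by p or lack of overlap in the same libraries. A kept direction is thus largely fixed by that choice. Past the threshold, though not in the main test, were 57 in DESeq2, which called 120 higher and 259 lower of 17967 genes. Without Sham 3 they were 35, with 68 higher and 168 lower called of 18382. The cause of these shifts was not tested. With 3 sham libraries, differences under 2-fold were often beyond reach, and 1 sham library could decide a call.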

Other observations

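Markers of new neurons and progenitors had higher levels for 7 of 11 genes, with a median of 0.28 that was 0.09 without the libraries with high Pmch. Nes, a filament of neural stem cells and vessels, ranged over 11.3 to 16.1 CPM in sham and 16.8 to 30.2 CPM in the ligated libraries (0.58 on the log2 scale, SE 0.19), and Sox2, a progenitor factor also made by astrocytes, over 27.6 to 31.4 CPM in sham and 32 to 45.1 CPM in the ligated libraries (0.38, SE 0.13). Both lay above sham in all 6 ligated libraries, beside 2.6% over all tested genes, and neither passed the adjusted threshold. Eomes, which marks intermediate progenitors, overlapped at 0.459 to 3.29 CPM in sham and 0.368 to 2.08 CPM in the ligated libraries.

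Genes of cholesterol synthesis had a median of 0.14, with 14 of 18 higher. Srebf2, their main transcription factor, lay on the other side, at 206 to 269 CPM in sham and 180.3 to 203 CPM in the ligated libraries (-0.27, SE 0.10). It was the 1 member below sham in all 6 ligated libraries, beside 3.23% over all tested genes. Striatal markers had a median of 0.45 (9 of 10 higher), which was 0.04 without the libraries with high Pmch. Among 42 ribosomal protein genes (median 0.01), 2 lay above sham in all 6 ligated libraries, beside 2.6% over all tested genes. One was Rpl10, at 77.9 to 85.5 CPM in sham and 94.5 to 144 CPM in the ligated libraries (0.44, SE 0.13).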
